A study of Sus scrofa with 16 samples.

Results

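The genes described here encode the contractile apparatus: myosins, actins, troponins, tropomyosins and the titin, M-band, Z-disc and filament-capping proteins that hold them in register. They were picked by gene symbol, from families of these proteins, with earlier results of these data known; the rule itself uses no measured value. The rule found 55 genes among the 6765 genes that the array's annotation names with a single symbol. These 55 were represented by 89 probe sets, and each gene was read from the brightest of its probe sets by mean signal. All 55 have a position in RefSeq on the pig genome build Sscrofa11.1. Genes of the same families such as MYH6, MYH11, MYL7, MYBPC3, ACTA1, CSRP3, LDB3 and FLNC had no probe set of their own by this annotation and were not analysed here.

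RNA came from the left ventricle of 16 young pigs (Yorkshire x Landrace, 2 to 3 months of age). A group of 8 animals had a myocardial infarction (MI) and a group of 8 had a sham operation (Sham), and tissue was taken 3 weeks after surgery. Both groups were labelled as 4 females with 4 males, which were neutered. Each animal gave 1 array, and the labels name no genetic change and no drug. The labels do not state how far the tissue lay from the infarct.

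In the sarcomere, myosin heads of the thick filament pull on actin of the thin filament, and the troponin complex with tropomyosin lets them bind when calcium rises. Titin spans from the Z disc, where thin filaments of neighbouring sarcomeres are anchored by alpha-actinin, to the M band. Most of these proteins come in several forms: the adult ventricle uses cardiac ones, fetal heart and skeletal muscle use others, and smooth muscle of vessels has its own actin, myosin light chains and calponin.

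Values are log2 signals as deposited, so a difference of 1 is a factor of 2. Animals are named by group and number, and a mean ± SD is over the 8 animals of a group. The arrays fell into 2 sets by their spike-in controls, which the labels do not mention: set A with 11 arrays, and set B with MI 7, MI 8, Sham 6, Sham 7 and Sham 8. The 2 MI animals of set B are both labelled female, and its sham animals are 1 female and 2 males. Limma fits of the group difference within set A took sex into account, and those within set B did not. The array's actin control gave a 3' minus 5' difference of 2.21 to 3.04 in set A and of 1.21 to 1.54 in set B. MI 7 is labelled female, but its signal for EIF1AY, a gene of chromosome Y, was 9.51, within the 9.40 to 9.96 of animals labelled male, while the other animals labelled female lay between 3.00 and 3.51. Control probe sets without target RNA reached 4.99, and this value is called background here: a gene counted as above it when its mean in either group exceeded it. Other genes expressed in cardiac muscle cells, such as CKM and RYR2, were above background for 15 of 15 measured genes. Between the groups 0 of them passed (10.5% of all probe sets). Not all of the 15 are specific to these cells, LDB1 and GJA1 for example. In whole tissue, fewer cells of a type and less RNA per cell cannot be told apart.

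The question was how the contractile genes of the ventricle stood 3 weeks after an infarction. Of the 55 genes 4 passed between MI and sham animals by limma (adjusted p under 0.05 over all 23999 probe sets). Of all probe sets 10.5% passed, so the members' share was not above that of the array. The tropomodulin TMOD4, the slow skeletal myosin-binding protein MYBPC1 and the fast skeletal myosin heavy chain MYH2 rose, and the non-muscle myosin heavy chain MYH10 fell. TMOD4 alone of these stood above background, as did 48 of the 55 genes (69.7% of all probe sets). Of the array's probe sets 5.39% rose and 5.14% fell. At an unadjusted p under 0.05 there were 8 of the 55 genes, against 23.6% of all probe sets. The groups were free of overlap in 0 of the 55 genes, against 2.96% of all probe sets. The estimate lay below 0 for 29 of the 55 genes (50.1% of all probe sets), and the median difference was -0.01.

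The size of difference in signal that these data allow was small for most of the genes. For 42 of the 55 the 95% confidence interval of the difference lay within 1.5-fold either way, and for 50 it lay within 2-fold. Among all probe sets these shares were 87% and 98.5%. The 42 include MYBPC1, MYH2, TNNC2, TNNT3, LMOD3 and MYOZ1, which stood under background. They also include MYH7, MYL2, MYL3, TNNC1, TNNI3 and ACTG1, with means over 14, near the top of the scale. At both ends a difference in RNA may be compressed, which was not tested, so narrow intervals there do not bound it. The genes with wider intervals were those that varied most among animals, such as MYL1, TNNI1, TNNT1, NEB and XIRP1.

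**Figure D1:**
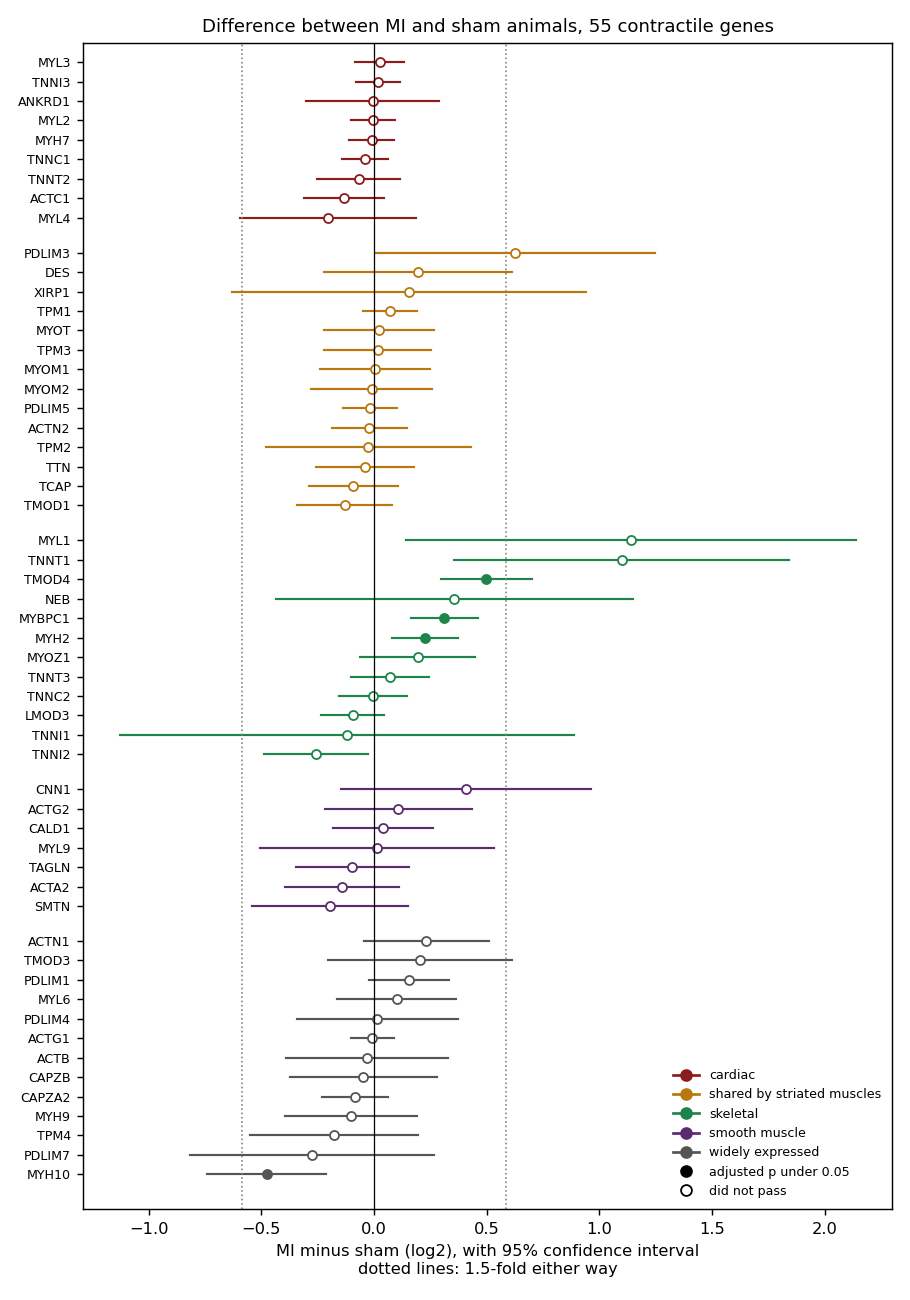
Difference between MI and sham animals (log2, horizontal axis) for each of the 55 genes, with its 95% confidence interval from the limma fit, grouped by the muscle in which the form is mainly used. Filled circles passed at an adjusted p under 0.05: TMOD4, MYBPC1 and MYH2 lie to the right of 0 and MYH10 to the left, while the 9 cardiac forms lie between -0.20 and 0.02. Dotted lines mark 1.5-fold either way.

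The genes were sorted into 9 cardiac forms, 12 skeletal forms, 14 shared by striated muscles, 7 of smooth muscle and 13 widely expressed. This sorting followed textbook use and was made after the values had been seen. All 3 increases fell among the 12 skeletal forms (5.39% of all probe sets rose), and 2 of them, MYBPC1 and MYH2, were under background. Of the skeletal forms 6 reached an unadjusted p under 0.05 in either direction (23.6% of all probe sets), and TNNI2 among these was lower in MI animals. Above background stood 6 of the 12. The median difference of the skeletal forms was 0.21. No set was tested against another, so the sorting describes where the calls lie.

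TMOD4 is the skeletal muscle tropomodulin, which caps the pointed end of the thin filament. Its gene lies on chr4:98074380-98079346, and no other protein-coding gene of RefSeq overlaps it. In sham animals its signal ran from 5.18 to 5.83 with a median of 5.58, and in MI animals from 5.73 to 6.28 with a median of 5.998. Of the 8 MI animals 7 lay above every sham animal, and only MI 7 fell below the highest sham animal, Sham 4. The mean was 6.01 ± 0.16 in MI and 5.51 ± 0.22 in sham animals, a difference of 0.50 (95% interval 0.30 to 0.70, adjusted p = 0.00347), or 1.41-fold. With a block for the sets it was 0.47 (adjusted p = 0.00211), within set A it was 0.41 (adjusted p = 0.0171), and within set B it was 0.51. It passed without each of the 16 animals in turn. The related TMOD1, the main tropomodulin of heart muscle, differed by -0.13 (95% interval -0.34 to 0.08), and TMOD3, the widely expressed form, by 0.20 (-0.20 to 0.61); neither passed.

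MYBPC1 is the slow skeletal form of myosin-binding protein C, which tunes the thick filament. Its values were 4.43 to 4.73 in sham animals (median 4.60) and 4.73 to 5.10 in MI animals (median 4.87). In all 8 MI animals the value was above the sham mean, and 7 of them lay above every sham animal. The difference was 0.31 (95% interval 0.16 to 0.46, adjusted p = 0.0097). Both group means, 4.92 ± 0.13 in MI and 4.61 ± 0.11 in sham animals, were under background. Within set A the difference was 0.28 and did not pass (adjusted p = 0.0849).

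MYH2 encodes the myosin heavy chain of fast IIA skeletal fibres. It ran from 3.54 to 3.90 in sham animals (median 3.75) and from 3.66 to 4.14 in MI animals (median 3.98), all under background. The lowest MI animal, MI 2, lay within the sham range and the other 7 lay above it. The difference was 0.23 (95% interval 0.08 to 0.38, adjusted p = 0.0463). This call was close to the threshold: it passed in only 2 of the 16 fits that left out an animal, those without MI 2 and without Sham 6, and the adjusted p otherwise reached 0.0872.

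**Figure D2:**
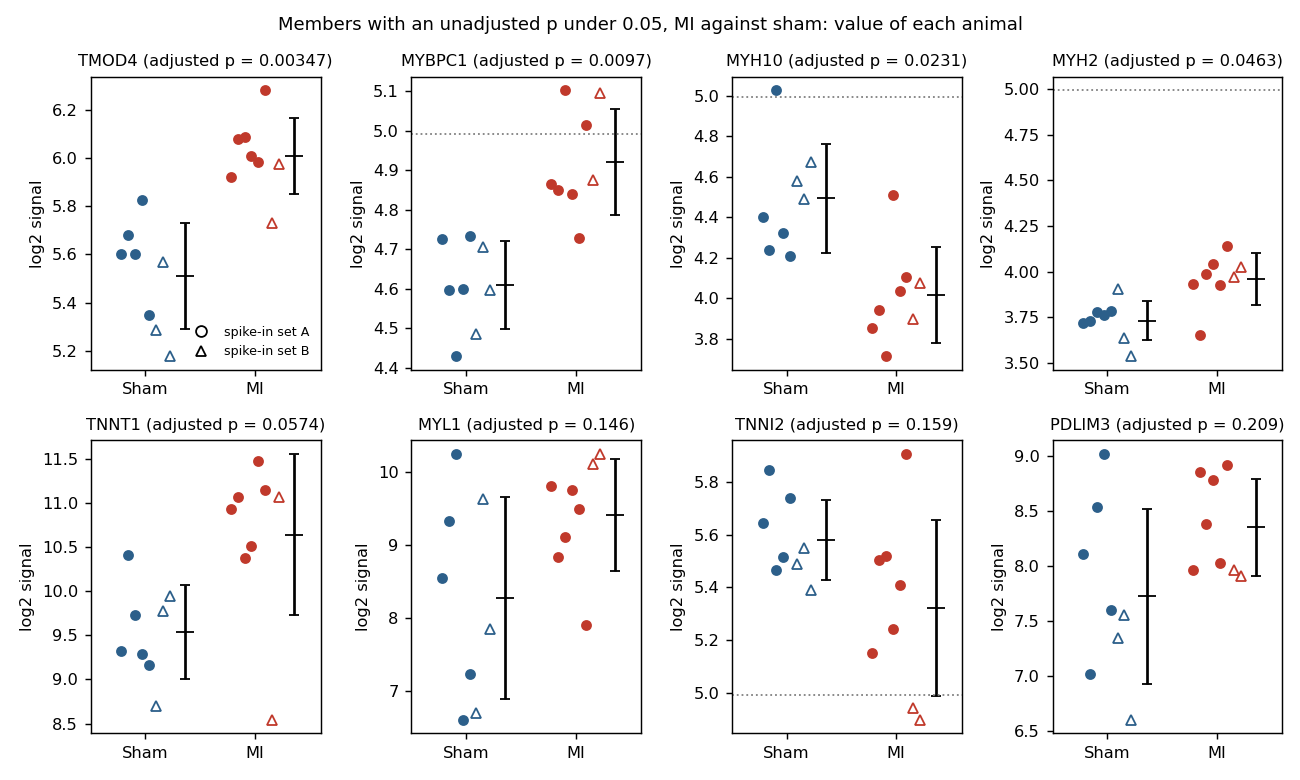
Log2 signal of each animal for the 8 genes with an unadjusted p under 0.05, with mean ± SD in black (8 animals per group). Filled circles are arrays of set A, open triangles those of set B, and the dotted line is background (4.99). TMOD4, MYBPC1 and MYH2 are higher and MYH10 lower in MI animals with 1 animal overlapping, while TNNT1 shows MI 7 far under the other MI animals.

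TNNT1 encodes slow skeletal troponin T, the subunit that ties the troponin complex to tropomyosin, and is also expressed in the developing heart. Its values ran from 8.70 to 10.41 in sham animals (median 9.52) and from 8.55 to 11.47 in MI animals (median 10.998). The lowest of all 16 values was that of MI 7, whereas the other 7 MI animals lay between 10.38 and 11.47, 6 of them above every sham animal. The means were 10.64 ± 0.91 and 9.54 ± 0.53, a difference of 1.10 (95% interval 0.36 to 1.84) or 2.14-fold, and the gene did not pass (adjusted p = 0.0574). Without MI 7 the difference was 1.41 and passed (adjusted p = 0.00184), and without Sham 2 it was 1.24 and passed (adjusted p = 0.0405). Within set A, which does not hold MI 7, it was 1.31 and passed (adjusted p = 0.0124), and with a block for the spike-in set it was 1.03 and did not (adjusted p = 0.0613). TNNT1 and TNNI3, the cardiac troponin I gene, are neighbours on chromosome 6 (chr6:59351445-59365584 and chr6:59366828-59377490). TNNI3 differed by 0.02 (95% interval -0.08 to 0.12).

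MYL1, the alkali light chain of fast skeletal myosin, spread widely in both groups. It ran from 6.61 to 10.25 in sham animals (median 8.20) and from 7.91 to 10.25 in MI animals (median 9.62). Of the MI animals 7 were above the sham mean, but all MI values lay inside the sham range, and Sham 3 was as high as the highest MI animal. The difference of 1.14 (95% interval 0.14 to 2.14) did not pass (adjusted p = 0.146). Of the fits that left out an animal only the one without Sham 2 passed (1.42, adjusted p = 0.0494). TNNI2, fast skeletal troponin I, had an estimate in the other direction, -0.26 (95% interval -0.49 to -0.02, adjusted p = 0.159). MYL1 and TNNI2 were singled out after their values had been seen.

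The other skeletal forms gave no call. TNNI1, slow skeletal troponin I and the fetal form of the heart, averaged 6.98 ± 0.71 in MI and 7.09 ± 1.23 in sham animals (difference -0.12, 95% interval -1.13 to 0.89). Its estimate was -0.87 within set A and 1.33 within set B, so the direction was not settled. NEB, nebulin, a ruler of the skeletal thin filament, differed by 0.36 (-0.44 to 1.15). MYOZ1, a calcineurin-binding Z-disc protein of fast fibres, differed by 0.19, TNNT3 (fast troponin T) by 0.07, TNNC2 (fast troponin C) by -0.01 and LMOD3, a leiomodin that nucleates actin, by -0.09; these 4 stood under background.

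Markers of skeletal muscle cells were read beside these forms. Of 10 measured, 5 were above background: CKM, ENO3, PYGM, CHRNA1 and ATP2A1. CKM, at 13.94 in MI and 14.01 in sham animals, is also among the cardiac muscle genes read above. The list, and its mean level, is thus not specific to skeletal muscle cells. MYOD1 and MYF6, transcription factors of the skeletal lineage, rose (0.56, adjusted p = 0.000561, and 0.33, adjusted p = 0.0145) and RYR1, the skeletal calcium release channel, fell (-0.29, adjusted p = 0.0259), with both group means of each under background. Among all probe sets 5.39% rose and 5.14% fell. The mean level over the 10 markers ran from 6.99 to 7.23 in MI and from 6.90 to 7.29 in sham animals. The part of these markers in the differences of the skeletal forms was not tested.

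The 9 cardiac forms gave 0 calls. With 10.5% of all probe sets passing, a count of 0 among 9 genes says little. Of these, 8 had an interval within 1.5-fold either way, but MYH7, MYL2, MYL3, TNNC1 and TNNI3 had means over 14, near the highest value of the whole table (14.92), where a difference may be compressed; this was not tested. MYH7, the beta myosin heavy chain that is the main motor of the pig ventricle, was at 14.52 ± 0.05 in MI and 14.53 ± 0.05 in sham animals, a difference of -0.01 (95% interval -0.11 to 0.09). The 8 MI animals ran from 14.44 to 14.59 and the sham animals from 14.46 to 14.58; 1 MI animal lay above and 1 below all sham animals. For the light chains of the ventricle the intervals were as narrow: MYL2, the regulatory light chain, differed by -0.01 (-0.10 to 0.09) and MYL3, the essential light chain, by 0.02 (-0.08 to 0.13). MYL4, the atrial and fetal essential light chain, was at 8.08 ± 0.56 in MI and 8.29 ± 0.27 in sham animals and differed by -0.20 (-0.59 to 0.19). Its estimate was -0.42 within set A and 0.42 within set B, so the direction was not settled.

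Thin filament and strain-sensing genes of the heart gave no call either. TNNC1, the calcium-binding troponin C of heart and slow muscle, differed by -0.04 (95% interval -0.14 to 0.06), and TNNT2, cardiac troponin T, by -0.07 (-0.25 to 0.12). ACTC1, cardiac alpha-actin, was at 13.38 ± 0.22 in MI and 13.51 ± 0.11 in sham animals, a difference of -0.13 (-0.31 to 0.04, adjusted p = 0.371). Of the MI animals 5 lay under every sham animal, and 1, MI 7 of set B, lay above every sham animal. The ACTC1 means were 13.27 in MI and 13.46 in sham animals of set A, and 13.71 and 13.60 in set B, so the direction was not settled. ANKRD1, a strain-responsive ankyrin repeat protein that binds titin, differed by -0.01 (-0.30 to 0.29). A second ANKRD1 probe set gave 8.27 ± 1.25 in MI and 7.99 ± 0.92 in sham animals and did not pass either. The adjusted p of the 9 genes ran from 0.371 to 0.988. Outside the cardiac forms, ACTG1 also had means over 14.

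**Figure D3:**
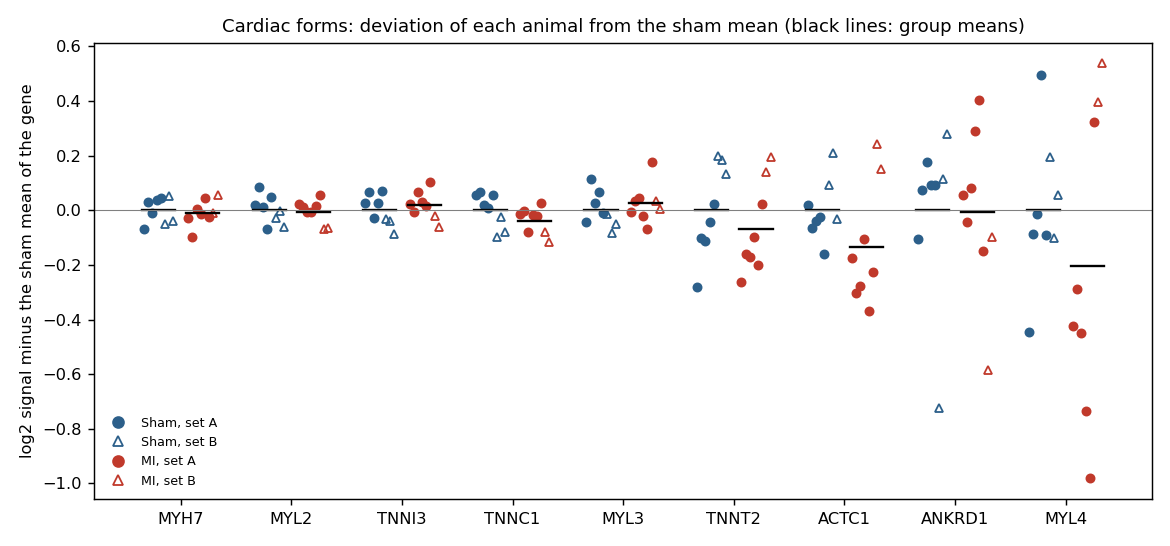
Deviation of each animal from the sham mean of the gene (log2, vertical axis) for the 9 cardiac forms, ordered by their spread over all animals, with black lines at the group means. The group means lie close together, with the widest gap at MYL4 (-0.20), and MYL4 spreads most among the MI animals (SD 0.56).

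Shifts between forms were measured within each animal, as the log2 difference of a fetal or other form and its adult ventricular partner. Of the 6 pairs planned, 3 had both genes measured. TNNI1 minus TNNI3 changed by -0.14 between the groups (exact permutation test, two-sided, p = 0.804), MYL4 minus MYL3 by -0.23 (exact p = 0.282) and ACTA2 minus ACTC1 by -0.01 (exact p = 0.963). TNNI3 and MYL3 varied little and lie near the top of the scale, so the first 2 differences mostly restate TNNI1 (-0.12) and MYL4 (-0.20). After adjustment over the 3 pairs the p-values were 0.963, 0.845 and 0.963. The estimate of TNNI1 minus TNNI3 was 0.23 without Sham 4, that of ACTA2 minus ACTC1 was 0.10 within set A, and that of MYL4 minus MYL3 was -0.39 within set A.

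Genes shared by striated muscles gave 0 calls among 14 (10.5% of all probe sets passed), all above background. In the titin and M-band group, TTN, the giant spring of the sarcomere, differed by -0.04 (95% interval -0.26 to 0.18), MYOM1 by 0.00 (-0.24 to 0.25) and MYOM2 by -0.01 (-0.28 to 0.26); the myomesins cross-link thick filaments at the M band. A second TTN probe set gave 11.38 ± 0.21 in MI and 11.15 ± 0.33 in sham animals, a difference of 0.23 (adjusted p = 0.328). Tropomyosins, which lie along actin and gate myosin binding, differed by 0.07 (TPM1), -0.02 (TPM2) and 0.02 (TPM3).

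At the Z disc, ACTN2, sarcomeric alpha-actinin, differed by -0.02 (95% interval -0.19 to 0.15), TCAP, which joins titin molecules at the Z disc, by -0.09 (-0.29 to 0.11), MYOT, myotilin, by 0.02 (-0.22 to 0.27) and PDLIM5, an alpha-actinin-binding adaptor, by -0.02 (-0.14 to 0.10). DES, desmin, the intermediate filament that ties neighbouring Z discs together, differed by 0.20 (-0.22 to 0.61). XIRP1, an actin-binding protein of the intercalated disc, differed by 0.16 (-0.63 to 0.94), with an SD of 0.75 in MI and 0.81 in sham animals. PDLIM3, an alpha-actinin-associated LIM protein, came closest to passing in this group. It ran from 6.60 to 9.02 in sham animals (median 7.58) and from 7.91 to 8.91 in MI animals (median 8.21), so the MI values lay inside the sham range. Its difference was 0.62 (0.00 to 1.25, adjusted p = 0.209), and without Sham 4 it was 0.88 and passed (adjusted p = 0.0143). RefSeq places another protein-coding gene, C15H4orf47, over the PDLIM3 gene. Such an overlap with another protein-coding gene also holds for ANKRD1, MYL2, PDLIM4, TMOD1 and TMOD3.

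Smooth muscle forms, which in the ventricle come mainly from vessel walls and from myofibroblasts of a scar, gave 0 calls among 7. With 10.5% of all probe sets passing, a count of 0 among 7 genes says little. ACTA2, smooth muscle alpha-actin, ran from 11.24 to 12.21 in sham animals (median 11.78) and from 11.46 to 12.01 in MI animals (median 11.59). All MI animals lay inside the sham range, and the difference was -0.14 (95% interval -0.39 to 0.11). TAGLN, transgelin, differed by -0.10 (-0.35 to 0.15), SMTN, smoothelin, by -0.19 (-0.54 to 0.15), CALD1, caldesmon, by 0.04 (-0.18 to 0.26), ACTG2, enteric actin, by 0.11 (-0.22 to 0.43) and MYL9, the smooth muscle regulatory light chain, by 0.01 (-0.51 to 0.53). CNN1, calponin, had the highest estimate, 0.41 (-0.15 to 0.96, adjusted p = 0.385). In 7 MI animals CNN1 exceeded the sham mean, and Sham 7 stood above the other sham animals. Markers of smooth muscle and pericytes, a list that also holds the member DES, passed in 0 of 6 genes. Those of fibroblasts passed in 0 of 11 and those of endothelium in 0 of 10 (10.5% of all probe sets). Some markers of other cells passed between the groups, where 5.39% of all probe sets rose and 5.14% fell. Of lymphocytes 4 rose and 1 fell among 10, and of red cells AHSP and HBM rose among 4. Of fat cells 2 rose and 1 fell among 7, and of macrophages CD14 alone rose among 6. Above background stood 7 of the 10 lymphocyte markers and 6 of the 7 fat cell markers. The mean level over the red cell markers ran from 6.41 to 7.82 in MI and from 6.26 to 6.78 in sham animals, and that over the lymphocyte markers from 5.16 to 5.73 and from 5.29 to 5.80. It ran from 7.69 to 8.00 and from 7.45 to 7.88 over the fat cell markers, and from 7.82 to 8.46 and from 7.77 to 8.27 over the macrophage markers. The part of these cells in the values of the contractile genes was not tested.

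Animals of set A were used to ask whether members varied together, since the 2 sets form separate clusters. Over its 11 animals ACTA2 and TAGLN followed each other closely, with a Pearson r of 0.94 (permutation p = 5e-05) and a Spearman rho of 0.918 (permutation p = 0.00028). After adjustment over the 3 pairs tested these were 0.00015 and 0.00084. Without the 2 animals farthest from the median of ACTA2, Sham 1 and Sham 5, r was 0.942, and over the 6 MI animals of the set it was 0.923. CNN1 did not follow TAGLN detectably (r = 0.192, permutation p = 0.584, rho = 0.0455). ANKRD1 and NPPB, the gene of the stretch-induced natriuretic peptide BNP, gave r = 0.688 (permutation p = 0.0191, adjusted 0.0286) and rho = 0.755 (permutation p = 0.00985, adjusted 0.0148). Without MI 5 and MI 6, the animals farthest from the median of ANKRD1, r was 0.482 (permutation p = 0.185), and over the 6 MI animals of the set it was 0.665. The relation was thus not detected without MI 5 and MI 6, whose omission also narrows the range of ANKRD1.

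**Figure D4:**
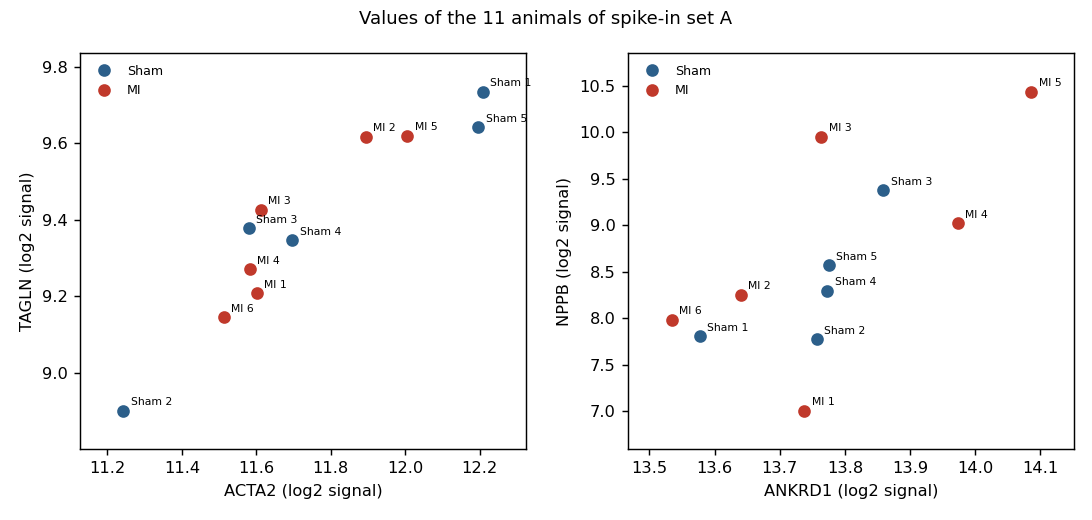
Log2 signals of 2 gene pairs in the 11 animals of set A, each point an animal. ACTA2 and TAGLN lie along 1 line (r = 0.94) with MI and sham animals intermixed, and ANKRD1 and NPPB (r = 0.688) give r = 0.482 without MI 5 and MI 6, the animals at the ends of the ANKRD1 range.

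Among the 13 widely expressed members MYH10 alone passed (10.5% of all probe sets in either direction). MYH10 encodes the heavy chain of non-muscle myosin IIB. It ran from 4.21 to 5.03 in sham animals (median 4.45) and from 3.71 to 4.51 in MI animals (median 3.99), with both group means under background. Of the MI animals 7 lay under every sham animal, and the highest, MI 4, lay inside the sham range. The difference was -0.48 (95% interval -0.74 to -0.21, adjusted p = 0.0231). It did not pass within set A (-0.42, adjusted p = 0.149), and the second MYH10 probe set gave a difference of 0.09 (adjusted p = 0.527).

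The other widely expressed members gave no call. MYH9, non-muscle myosin IIA, differed by -0.10, and MYL6, the light chain of non-muscle and smooth muscle myosin, by 0.10. The cytoplasmic actins ACTB and ACTG1 differed by -0.03 and -0.01, TPM4 by -0.18 and ACTN1, the alpha-actinin of focal adhesions, by 0.23. The capping protein subunits CAPZA2 and CAPZB, which close the barbed end of actin at the Z disc, differed by -0.09 and -0.05. The LIM proteins PDLIM1, PDLIM4 and PDLIM7 differed by 0.16, 0.01 and -0.28. Actins and myosin heavy chains resemble each other closely in sequence, and probes were not aligned here, so a signal of 1 form may hold RNA of another.

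For 21 of the 55 genes the array held further probe sets, 34 in all. Of these 31 were above background, 0 were higher (5.39% of all probe sets) and 1 was lower (5.14%): an ACTG1 probe set under background, 4.32 ± 0.13 in MI and 4.63 ± 0.21 in sham animals (difference -0.31, adjusted p = 0.0399). The ACTG1 probe sets beside it differed by -0.17 to 0.02 and did not pass. Within set A 5 of the 34 passed (9.68% of all probe sets), all lower in MI animals: 3 of PDLIM5, 1 of SMTN and 1 of TPM3. The 3 PDLIM5 probe sets differed there by -0.59, -0.40 and -0.61 (adjusted p = 0.0319, 0.0284 and 0.0128), but within set B by 0.79, 0.49 and 0.60. Over all animals they differed by -0.10, -0.07 and -0.23 and did not pass, and the brightest PDLIM5 probe set differed by -0.02 within set A. The probe sets of PDLIM5 thus disagreed, and the direction of 3 of them was not the same in both sets.

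Sex and its interplay with infarction were tested next. By limma 0 of 55 passed between animals labelled female and male (0.0583% of all probe sets), with 1 gene, TNNT3, at an unadjusted p under 0.05 (3.11%). For the difference of the MI effect between the sexes 0 passed (0% of all probe sets), and 5 genes were at an unadjusted p under 0.05 (5.68%). These were ACTN1, MYL4, NEB, ACTA2 and CAPZB, each with an adjusted p of 0.794. These fits had no term for the spike-in set. Set B holds 2 MI females, 0 MI males, 1 sham female and 2 sham males by label. Sex and its interplay with infarction are thus partly mixed with the set. Within males TMOD4 passed (0.60, adjusted p = 0.024, against 3.4% of all probe sets) and within females no member did (2.85%), where the TMOD4 difference was 0.40 (adjusted p = 0.135). The 2 sham males of set B, Sham 6 and Sham 8, had the lowest TMOD4 values of all animals (5.29 and 5.18). The TMOD4 difference within males is thus partly mixed with the set. The difference between the sexes for TMOD4 had an adjusted p of 0.83. The counts of 0 for sex and for the interaction were also 0 without MI 7.

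The spread among animals, measured as the distance from the group median, gave 0 calls by limma (0% of all probe sets). At an unadjusted p under 0.05 there were 2 genes, against 3.24% of all probe sets: MYL1, with an SD of 0.77 in MI and 1.39 in sham animals, and ACTA2, with 0.19 and 0.36. On simulated data this test found almost none of the planted differences, so the count of 0 says little.

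The same genes were compared between the spike-in sets. With group and sex in the fit, 11 of the 55 genes were higher in set B (9.45% of all probe sets) and 0 were lower (8.2%). Counted in either direction, 11 of 55 passed, near the array's own share of 17.6%. XIRP1 had the largest difference: its mean was 11.22 in set B and 9.995 in set A, a fitted difference of 1.43 (SE 0.26, adjusted p = 0.00174). PDLIM7, a LIM protein that binds tropomyosin, followed at 1.04 (SE 0.15, adjusted p = 0.000409). For PDLIM7 all 5 arrays of set B lay above all 11 of set A, as they did for SMTN, CAPZB and TNNT2. The share of all probe sets that separate in this way was not counted, so this is not read as particular to these genes. The remaining genes higher in set B were MYL9, TPM2, DES, MYOZ1, TMOD1 and ACTC1, with differences from 0.26 to 0.88. TMOD4, MYBPC1, MYH2 and MYH10 did not pass between the sets. Without MI 1 the count of genes higher in set B was 7, and without MI 8 it was 7 as well.

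Group calls were therefore also read with the set. As a block it left 4 calls (12.9% of all probe sets), and within set A there were 2, TMOD4 and TNNT1 (9.68%). Within set B, with 2 MI and 3 sham animals and without sex in the fit, there were 0 (0.00417%). Without MI 7 and with the set as a block there were 3, MYBPC1, TMOD4 and TNNT1 (11.5%).

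**Figure D5:**
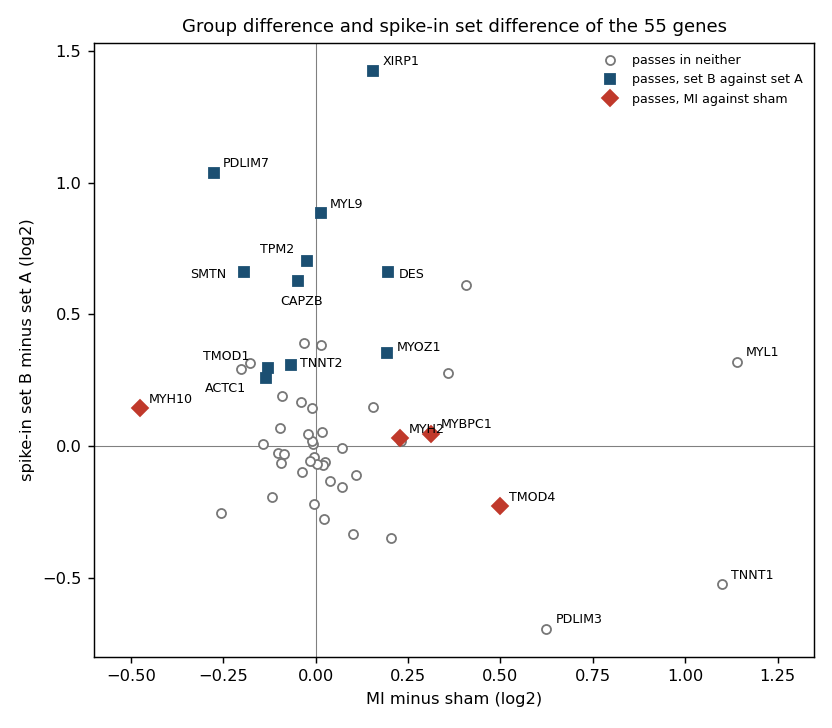
Difference between MI and sham animals (horizontal axis) and between spike-in sets B and A (vertical axis) for the 55 genes, both log2. The 11 squares passed between the sets, with XIRP1 highest at 1.43, and the 4 diamonds passed between MI and sham animals; no gene passed in both.

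Partners of the contractile apparatus, such as chaperones, proteases, kinases and scaffold proteins, were read from a list of 76 genes, of which 45 were measured and 44 stood above background. By limma 2 rose and 0 fell, a share not above that of the array (5.39% higher and 5.14% lower). CAPN3, the muscle calpain that is anchored on titin, was at 5.09 ± 0.15 in sham animals and rose to 5.51 ± 0.19 after infarction (difference 0.43, 95% interval 0.24 to 0.61, adjusted p = 0.00547). CAPN3 passed without each animal in turn, but not with the mean over its probe sets nor within set B. Its sham values, 4.94 to 5.39, lay close to background (4.99). UNC45B, the chaperone that folds myosin heads, rose from 8.78 ± 0.23 to 9.17 ± 0.27 (difference 0.40, 0.16 to 0.63, adjusted p = 0.0336). It passed in 8 of the 16 fits that left out an animal; without MI 6, MI 7, MI 8, Sham 1, Sham 3, Sham 4, Sham 7 or Sham 8 it did not (adjusted p of up to 0.067), nor within set A (0.25). CMYA5, a Z-disc scaffold, gave -0.37 (adjusted p = 0.0845), and passed without MI 3 (-0.43). TAGLN3, a transgelin of neurons, gave 0.28 (adjusted p = 0.0742) under background.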

How the data were processed

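The deposited table holds log2 values of 24123 probe sets on 16 porcine arrays. Per the labels' protocols the arrays carried labelled cRNA made from total RNA of each animal. The authors' normalization, summary method and software were not given in the sources used here, and the log2 unit was judged from the range and the equal array medians (6.24). Depth does not apply to arrays, and the number of animals limits the precision. All 16 sample columns were used as deposited. Nothing in the labels says more of the animals' independence than that each gave 1 array.

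Tests left out the 124 control probe sets. Of the 23999 tested, 10069 carried a single symbol, 198 several and 13732 none. Differences were tested with limma 3.58.1 in R 4.3.3 (two-sided, Benjamini-Hochberg over 23999 probe sets), with 1 mean per group and sex, 12 residual and 3.28 prior degrees of freedom. The spread test had 14 and 2.87. Correlations and exact permutation tests used Python 3.11.15 with scipy 1.17.1. Spike-in sets were split at the largest gap between poly-A and hybridisation controls: poly-A minus hybridisation controls was -2.45 to -1.40 in set A and -4.83 to -3.77 in set B. The fits were tested on simulated data.

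The members and lists were chosen with earlier results of these data known. Genes given in detail were those passing, the 2 lowest p in each role, a list of well-known sarcomere genes, the 3 largest differences between the sets in each direction, and, of the partners, those passing and the 4 with the lowest p; MYL1 and TNNI2 were added after their values were seen. Other members are given by their difference alone. Alternatives covered sex, the replicate block, scaling, an offset, dim probe sets, variance estimation, array weights, thresholds, the probe sets of a gene, the spike-in sets and single animals.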

Additional observations from a re-analysis of the deposited data

Results flagged for a closer look

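Among 72 groups of 8 values, each a member given in detail or a pair of forms in MI or in sham animals, 8 values stood apart from the other 7 animals by more than Dixon's 95% limit (0.526 of the range). Chance gives about 1 in 20 such groups. TNNT1 was 8.55 in MI 7, under the next MI animal at 10.38. ANKRD1 was 12.96 in Sham 6, CNN1 was 9.69 in Sham 7 with the next sham animal at 8.38, and TPM1 was 13.45 in Sham 8. ACTN1 was 9.51 in MI 5, MYH2 was 3.66 in MI 2, MYL3 was 14.44 in MI 6 and PDLIM1 was 11.69 in MI 1. Sham 6, Sham 7, Sham 8 and MI 7 belong to set B; the part of the set in these values was not tested.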

How the results depend on the processing

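The 4 calls among the 55 genes became 1 with only the 16000 brightest probe sets, 1 with only those above background, 2 at an adjusted p under 0.01, 0 with a fold of at least 1.5, 2 within set A and 0 within set B, and leaving out each animal gave 3 to 5. Except for the spike-in sets, shares of all probe sets under these settings are not given here. The counts thus do not show whether members dropped out more than other probe sets. The 2 calls among partners became 1 with the brightest probe sets, those above background, an adjusted p under 0.01, array weights, the mean over probe sets and set A, and 0 with a fold of at least 1.5 and within set B; leaving out each animal gave 1 to 3. The 11 genes higher in set B became 6 at an adjusted p under 0.01 and 7 with a fold of at least 1.5, and leaving out each animal gave 7 to 13.

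With the replicate number as a block 1 gene passed between MI and sham animals, 1 partner, and 0 between the sets. The labels do not say that a number marks a shared litter or day. Numbers 1 to 5 lie in set A and 7 and 8 in set B in both groups, and 6 lies in both sets, so the block partly follows the spike-in sets. The correlation of same-numbered animals ran from -0.07 to 0.456, and 2 of 8 MI animals correlated best with their own number.

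TNNI1 minus TNNI3 ran from -0.34 to 0.23 without each animal, and ACTA2 minus ACTC1 from -0.092 to 0.073, with 0.10 within set A. Without the 2 farthest animals the r of CNN1 and TAGLN was -0.105 and that of ANKRD1 and NPPB 0.482. Of 33 members given in detail, 0 with a call changed sign in any alternative, and 15 without a call did in at least 1. Signal over background limits MYBPC1, MYH2 and MYH10, which dropped out under both filters on dim probe sets. The cause of the other shifts was not tested.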
